A study of Mus musculus with 32 samples.

Results

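The Frizzled family is the set of receptors that bind Wnt proteins at the cell surface. Its 10 mouse genes, Fzd1 to Fzd10, were found by symbol among the 55492 rows of a gene-level FPKM table (fragments per kilobase of transcript, scaled to the number of fragments mapped) of 32 polyadenylated RNA libraries. All 10 were present, all 10 passed the filter on low values, and no library held any of them at 0. The family was chosen by a measured value, the day 6 level of Fzd10, whose rise in the Mettl3 knockout over WT was the largest of all genes in earlier work on these data, so the WT and KO day 6 libraries are described here for the family without a test.

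Mouse embryonic stem cells (day 0) and retinal organoids made from them (days 2, 4 and 6) were compared in 4 conditions, with 2 libraries in each of the 16 groups. WT denotes Rx:GFP cells, which carry a green fluorescent protein reporter named after Rx (Rax), a transcription factor of the eye field. KO denotes cells without Mettl3, the catalytic subunit of the enzyme that places N6-methyladenosine on RNA. The third and the fourth condition are KO cells that overexpress wild-type METTL3 joined to a domain called GRBD, kept without dexamethasone (no Dex) or given dexamethasone (Dex), a synthetic glucocorticoid, at 10 µM. The series describes this fusion protein as cytosolic without Dex and as translocated to the nucleus with it. WT cells lack the fusion and the knockout, and both fusion conditions keep the knockout. Organoid medium of all 4 conditions held AGN at 0.1 µM, and the day 0 labels name no AGN. The labels call some day 0 libraries Dex treated, whereas the treatment text lists Dex for 2, 4 and 6 days, and the labels were followed. Dex was given to the fusion line alone, so an effect of Dex itself and an effect of moving the fusion protein cannot be told apart. Whether each line is 1 clone, and which promoter drives the fusion, is not given in the sources used here.

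Frizzled proteins have an extracellular cysteine-rich domain that holds the lipid of a Wnt protein, a membrane-spanning core and an intracellular tail that recruits Dishevelled. With the co-receptors Lrp5 and Lrp6 they stabilise beta-catenin, which enters the nucleus and acts with TCF and LEF factors on target genes such as Axin2. Some members also work in planar cell polarity and calcium signalling. The ubiquitin ligases Znrf3 and Rnf43 remove Frizzled proteins from the membrane, and R-spondins bound to Lgr receptors oppose that removal. In the forebrain, low Wnt signalling in front and high signalling behind separate the eye field and telencephalon from the diencephalon and midbrain.

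The members share a short stretch of coding sequence after the last membrane-spanning segment, the KTxxxW motif, through which Frizzled proteins bind Dishevelled. It is shown because it is what the family has in common at the RNA level, although the members moved in different ways. An in-frame search for a lysine codon, a threonine codon, 3 codons of any kind and a tryptophan codon found 1 match in each of the 10 coding sequences (GENCODE M21). The stretches of the 9 members printed run from 6 bases before to 6 bases after the match, 5′ to 3′ on the coding strand, with the lysine, threonine and tryptophan codons in capitals.
Fzd1: tccggcAAGACActgaattccTGGaggaag
Fzd2: tccggcAAGACActgcactcgTGGaggaag
Fzd7: tcgggcAAGACCctgcagtcaTGGcgtcgc
Fzd5: tccggcAAGACTctggagtctTGGcggcgg
Fzd9: agttccAAGACTtttcagactTGGcagagc
Fzd10: acttccAAGACCctgcagtccTGGcaacac
Fzd4: tctgccAAAACTcttcacacgTGGcaaaag
Fzd3: agcaaaAAGACAtgctttgaaTGGgccagt
Fzd6: agcaaaAAGACGtgcacagaaTGGgccggg

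The match began 24 codons before the end of the coding sequence, stop codon included, in Fzd1, Fzd2 and Fzd7, and 166 and 213 codons from it in Fzd3 and Fzd6, which have long tails. Whole coding sequences were compared in pairs. Fzd1 and Fzd2 were 81.3% identical, Fzd2 and Fzd7 78.5%, Fzd5 and Fzd8 75.3%, Fzd9 and Fzd10 69.7%, and Fzd3 and Fzd6 61.9%. The least alike pair, Fzd3 and Fzd9, shared 53.8% of aligned bases. No stretch of 100 bases occurred in the transcripts of more than 1 member.

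In GRCm38 the family is spread over 7 chromosomes. Fzd5 (chr1:64730558-64737751) and Fzd7 (chr1:59482424-59486955) share chromosome 1, and Fzd1 (chr5:4753839-4758035), Fzd9 (chr5:135248938-135251230) and Fzd10 (chr5:128600844-128604093) share chromosome 5. Fzd2 lies at chr11:102604396-102608058, Fzd3 at chr14:65192449-65262463, Fzd4 at chr7:89404355-89413134, Fzd6 at chr15:39006034-39038188 and Fzd8 at chr18:9212163-9218136. Fzd1, Fzd2, Fzd7, Fzd8, Fzd9 and Fzd10 have a single exon. Exons of Fzd5 overlap Gm38058 and exons of Fzd6 overlap Gm26704, both on the opposite strand, and whether the counting used strand is not given in the sources used here. Those 2 genes were listed at no more than 0.31 and 0.11 FPKM in any library.

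Estimated depth was 27.9 to 53.6 M fragments per library, M standing for mega (median 37.3 M), and duplicates correlated at r = 0.9922 to 0.9955 over the genes tested. The lowest Frizzled value, 0.18 FPKM for Fzd4, stood for an estimated 42.4 fragments, and 3 fragments would be 0.013 FPKM. The lowest value of Fzd1, 0.28 FPKM, stood for an estimated 30.4 fragments, the fewest at the lowest value of any member. The estimate of fragments covers counting error only. The duplicates were separate library preparations, and separate cultures are not mentioned, so p-values measure the spread between these libraries, which may be technical. Mettl3 mRNA was 32.5 to 41.2 FPKM in the WT libraries, 34.9 to 43.8 in KO and 44.5 to 75.1 in the fusion line; a gene-level value does not show whether a transcript is edited, so it does not check the knockout. Stem cell markers (Pou5f1, Nanog, Zfp42, Esrrb, Klf4) summed to 1697 to 1952 FPKM in day 0 libraries and to 25.8 to 75.8 on day 6. On day 6 the eye field gene Rax was at 121.5 and 114.8 FPKM in WT, 0.28 and 0.32 in KO, 0.79 and 1.03 in the fusion line without Dex, and 53.9 and 55.5 with it. Six6, another eye field gene, was at 70.3 and 69 FPKM in WT, 0.02 in both KO libraries, 0.01 in both without Dex, and 6.66 and 6.13 with it. Six3 and Lhx2, which forebrain tissue outside the eye also expresses, were at 0.69 and 0.58 and at 4.59 and 5.35 FPKM in KO, and at 10.7 and 12.2 and at 18 and 16.6 without Dex. Rax and Six6 were thus at about 1 FPKM or less in KO and without Dex on day 6, Six3 and Lhx2 were not near 0 without Dex, and Pax6, which other neural tissue expresses, was at 111 and 112 FPKM in KO. These are bulk libraries, in which fewer cells of a type and less RNA per cell cannot be told apart.

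Summed Frizzled mRNA was higher on day 6 than on day 0 in all 4 conditions, and its make-up differed between the days. In WT the sum of the 10 members was 65.6 FPKM on day 0, 86.4 on day 2, 166.9 on day 4 and 196.7 on day 6. The KO sums were 55.5, 117, 219.5 and 283.4 FPKM. The fusion line without Dex went from 201 FPKM on day 4 down to 157.9 on day 6, and with Dex it held 197.5 and 197.6. Duplicate sums differed by far less than the groups did on day 6 (KO 283.0 and 283.8, no Dex 157.4 and 158.4), except that WT (196.8 and 196.5) and Dex (197.2 and 197.9) lay close together.

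**Figure D1:**
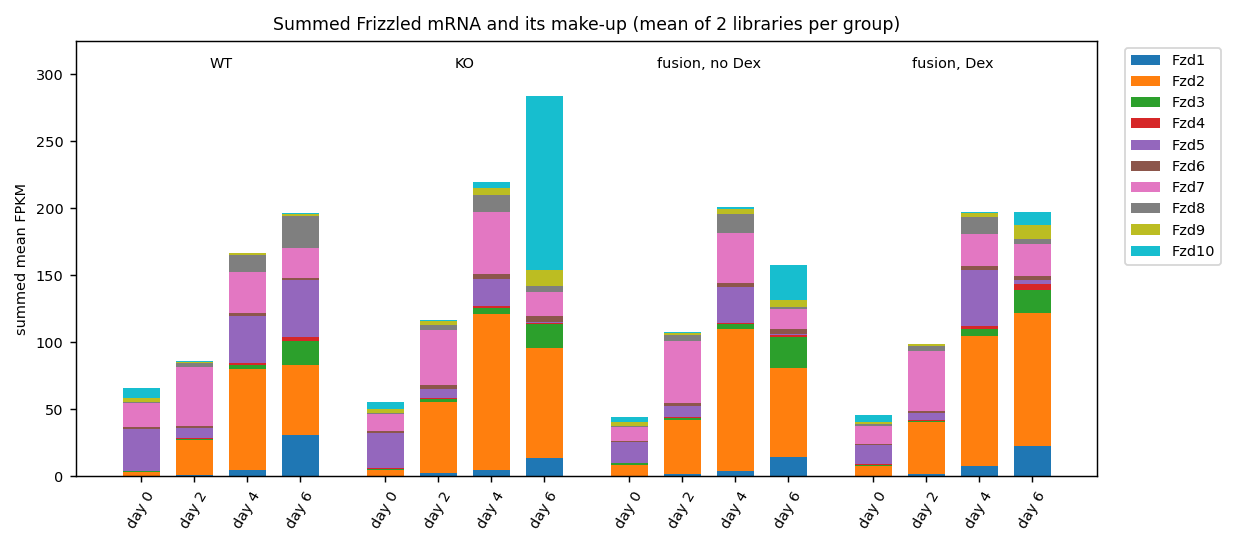
Summed Frizzled mRNA by group. Each bar stacks the mean FPKM of the 10 members (2 libraries per group), and the horizontal axis gives condition and day; the tallest bar is KO on day 6 (283.4 FPKM), of which Fzd10 makes up 45.6%.

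The member with the most mRNA changed with the day. On day 0 it was Fzd5 in all 4 conditions, with 47.3% of the family's FPKM in WT, 47.6% in KO, and in the fusion line 35.0% without and 32.6% with Dex. On day 2 Fzd7 led in WT (51.3%), in the fusion line without Dex (42.6%) and with Dex (45.3%), and Fzd2 led in KO (45.6%). On day 4 Fzd2 led everywhere, with 45.6% in WT, 53.1% in KO, and in the fusion line 52.5% without and 49.3% with Dex. On day 6 Fzd2 still led in WT (26.6%), without Dex (42.2%) and with Dex (50.5%), whereas in KO Fzd10 led with 45.6% and Fzd2 followed with 29.1%. FPKM is a level per length of transcript, so these shares compare levels between genes.

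**Figure D2:**
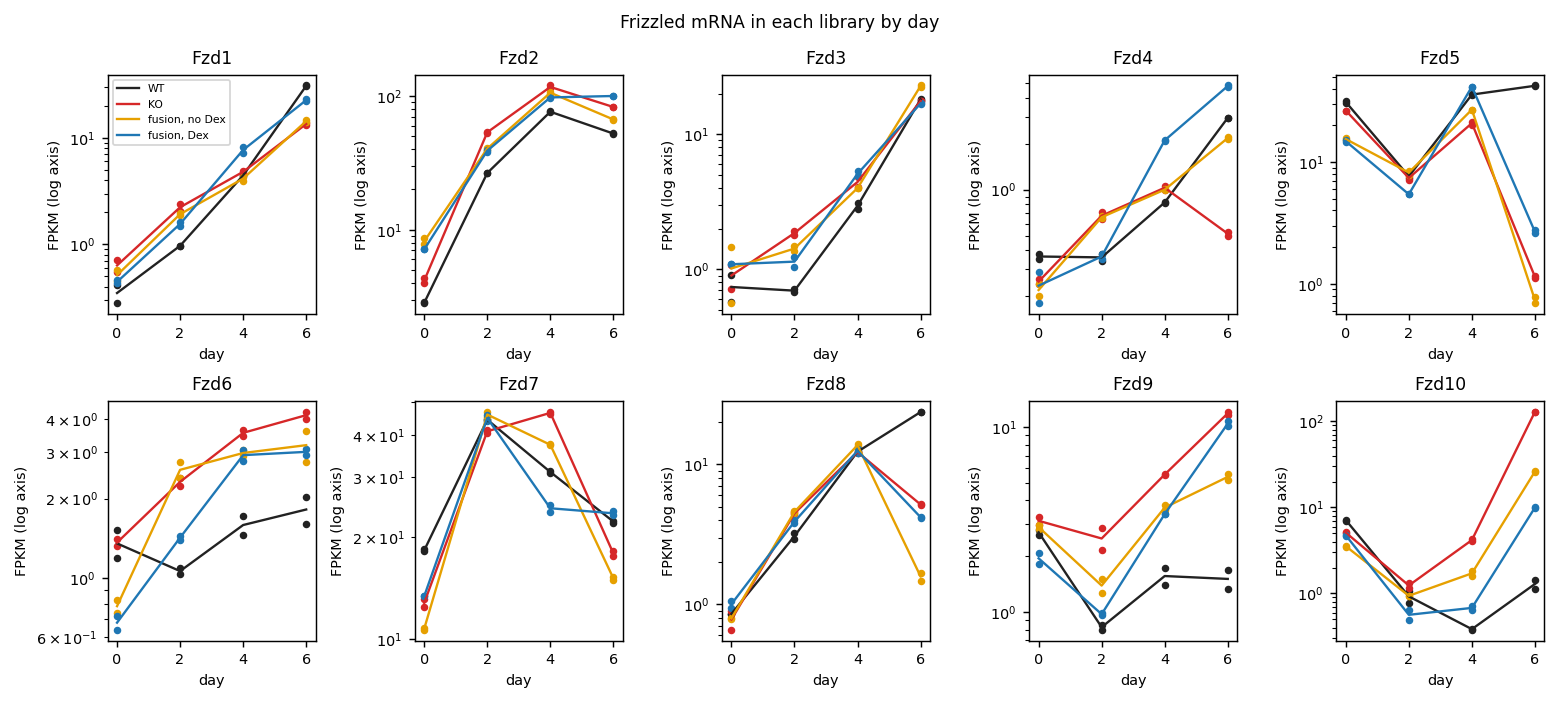
FPKM of each Frizzled gene by day, on a log axis that differs between panels. Points are libraries, lines join the means of 2 libraries, and colours mark the condition; Fzd5 and Fzd10 spread most on day 6, between 0.69 and 42.5 FPKM and between 1.14 and 129.5 FPKM.

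From day 0 to day 4 most of the family rose in every condition. Fzd2, a receptor for canonical and non-canonical Wnt proteins, rose most in each: by 4.32 in WT and 4.51 in KO, and in the fusion line by 3.53 without and 3.59 with Dex, on the log2(FPKM + 1) scale (limma, SE 0.04, highest adjusted p = 3.86e-23). Fzd8 rose by 2.85, 2.90, 3.04 and 2.75 in the same order (SE 0.06, highest adjusted p = 3.21e-19), and Fzd1 by 2.01, 1.83, 1.76 and 2.58 (SE 0.07, highest adjusted p = 1.57e-14). In WT 9 of 10 members were called, 7 higher and 2 lower, where 73.6% of all 16276 genes tested were called (36.7% higher, 36.9% lower). In KO all 10 were called, 8 higher and 2 lower, beside 75% of all genes (43% higher, 32% lower). Without Dex all 10 were called, 9 higher and 1 lower, beside 76.6% (46.5% higher, 30.1% lower), and with Dex all 10, 9 higher and 1 lower, beside 75.4% (42.4% higher, 33.1% lower). Most of the genes tested were called between stem cells and organoids, so these counts are a description of the members and not of something particular to them. Fzd10 was the member that fell in all 4 conditions, by 2.55 in WT and 0.24 in KO, and in the fusion line it fell by 0.75 without and fell by 1.77 with Dex. The fall in KO was lost when the first KO library of day 4 was left out (adjusted p = 0.0541), and the rise of Fzd9 without Dex (log2 change 0.27) was lost after rescaling or without the second library of day 0 or of day 4. Rescaling the libraries by median of ratios moved the median of all genes from 0.15 to -0.03 without Dex and from 0.09 to -0.02 in KO and reversed no called member; after it the share of all called genes that were higher went from 60.7% to 47.7% without Dex, from 57.3% to 47.8% in KO and from 56.2% to 47.6% with Dex.

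Between days 4 and 6 Fzd5 and Fzd8 fell in the fusion line and Fzd10, Fzd1 and Fzd3 rose. Without Dex 9 of 10 members were called, 5 higher and 4 lower, beside 67.9% of all genes tested (36.8% higher, 31.1% lower), and with Dex 7, 5 higher and 2 lower, beside 65.1% (37.4% higher, 27.7% lower). Fzd5 fell by 4.01 without Dex and fell by 3.54 with Dex (SE 0.04, limma adjusted p = 8.07e-23 and 4.00e-22). Fzd10 rose by 3.32 and 2.71 (SE 0.07, adjusted p = 1.74e-18 and 4.80e-17). Fzd3 rose by 2.25 and 1.56 (SE 0.14, adjusted p = 2.95e-11 and 8.64e-09). In WT and KO the same interval is given without a test: Fzd5 differed by 0.23 in WT and -3.35 in KO, Fzd10 by 0.72 and 4.65, and Fzd1 by 2.54 and 1.32 on the log2(FPKM + 1) scale. Over all genes 66.7% were called in WT (41.7% higher, 25% lower) and 65.3% in KO (34.9% higher, 30.5% lower) between those days, and rescaling moved the share of called genes that were higher in WT from 62.5% to 50.8%.

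KO organoids held more mRNA of most Frizzled genes than WT on days 2 and 4, and KO stem cells held more of some and less of others. Fzd2, Fzd3, Fzd4, Fzd6, Fzd9 and Fzd10 were called higher in KO on both days 2 and 4, and Fzd5 was lower on day 4. On day 0, 6 of 10 members were called, 2 higher (Fzd1, Fzd2) and 4 lower (Fzd4, Fzd5, Fzd7, Fzd10), beside 48.2% of all genes tested (18.4% higher, 29.8% lower). On day 2, 9 were called, 8 higher and 1 lower (Fzd7), beside 58.9% of all genes (37.5% higher, 21.3% lower). On day 4, 8 were called, 7 higher and 1 lower (Fzd5), beside 60.5% (36.5% higher, 24% lower). After rescaling the libraries, the share of all called genes that were higher in KO went from 63.8% to 50.5% on day 2 and from 60.3% to 49.6% on day 4. The median log2 change of the 10 members was -0.03 on day 0, 0.55 on day 2 and 0.51 on day 4, beside -0.04, 0.09 and 0.06 over all genes tested. Rescaling added Fzd5 as lower on day 2 (log2 change -0.15, adjusted p = 0.00544). Some of these calls are small. Fzd4 on day 0 (log2 change -0.13) was lost whichever of the 4 libraries was left out (adjusted p = 0.0553 to 0.145), and Fzd1 on day 0 (0.28) without the first library of either condition (adjusted p = 0.0615 in both). Fzd10 on day 2 (0.22) was lost after rescaling (adjusted p = 0.0568) and was 0.11 without the second WT library (adjusted p = 0.245). Fzd3 on day 4 (0.46) was lost without the first library of either condition (adjusted p = 0.066 and 0.0885), and Fzd4 on day 4 (0.15) after rescaling (adjusted p = 0.0794) and without the first KO library (adjusted p = 0.0657). On day 6, where 65.1% of all genes tested were called (30.9% higher, 34.2% lower), the family is described without a test: 4 members were above and 6 below WT.

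Between the fusion line without Dex and KO, Fzd2, Fzd5, Fzd7 and Fzd10 were called on each of days 0, 2 and 4, and Fzd9 on days 2 and 4. Fzd2 was higher on day 0 by 0.83 ± 0.04 (limma adjusted p = 3.60e-12), Fzd5 was higher on day 4 by 0.36 ± 0.04 (adjusted p = 5.75e-06), and Fzd10 fell by 0.93 ± 0.07 on day 4 (adjusted p = 2.19e-08). This comparison shares the KO libraries with KO against WT, so values are set side by side only. On day 0, 5 of 10 members were called, Fzd2 higher and Fzd5, Fzd6, Fzd7 and Fzd10 lower, beside 49.1% of all genes tested (19.3% higher, 29.8% lower). On day 2, 5 were called, Fzd5 and Fzd7 higher and Fzd2, Fzd9 and Fzd10 lower, beside 37% (14.8% higher, 22.2% lower). On day 4, 5 were called, Fzd5 higher and Fzd2, Fzd7, Fzd9 and Fzd10 lower, beside 26.7% (9.66% higher, 17% lower). After rescaling, the share of all called genes that were higher went from 39.3% to 57.3% on day 0 and from 36.3% to 51.9% on day 4. Among the members, the calls of Fzd2 on day 4 (log2 change -0.14) and of Fzd5 (0.13) and Fzd10 (-0.21) on day 2 were lost when 1 library was left out: the second library of KO or of no Dex for Fzd2 (adjusted p = 0.136 and 0.112) and for Fzd5 (adjusted p = 0.218 and 0.238), and either no Dex library or the second KO library for Fzd10 (adjusted p = 0.0897 to 0.183). On day 6, where 49% of all genes were called (21.1% higher, 27.9% lower), 3 members were above and 7 below KO, given without a test: the differences were 1.07 for Fzd4, -1.26 for Fzd8, -1.01 for Fzd9 and -2.26 for Fzd10, and lay between -0.31 and 0.35 for the other 6.

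With Dex, the fusion line held more of most Frizzled mRNAs on day 6 and less Fzd10. On day 0, 5 of 10 members were called, Fzd7, Fzd8 and Fzd10 higher and Fzd2 and Fzd9 lower, beside 43.4% of all genes tested (27.3% higher, 16.1% lower). On day 2, 7 were called, all lower (Fzd1, Fzd4, Fzd5, Fzd6, Fzd8, Fzd9, Fzd10), beside 44.3% (12.7% higher, 31.5% lower). On day 4, 6 were called, Fzd1, Fzd4 and Fzd5 higher and Fzd2, Fzd7 and Fzd10 lower, beside 40.2% (18.3% higher, 21.9% lower). On day 6, 9 were called, 7 higher (Fzd1, Fzd2, Fzd4, Fzd5, Fzd7, Fzd8, Fzd9) and 2 lower (Fzd3, Fzd10), beside 42.7% of all genes (23.8% higher, 19% lower). The median log2 change of the members on day 6 was 0.61, beside 0.01 over all genes tested. On day 0, rescaling also added Fzd5 as lower (log2 change -0.13, adjusted p = 0.0143). It moved the share of all called genes that were higher from 62.9% to 48.1% on day 0 and from 28.7% to 50.1% on day 2, and on day 2 it left 4 of the 7 called (Fzd4, Fzd5, Fzd6 and Fzd10), without Fzd1, Fzd8 and Fzd9 (adjusted p = 0.188, 0.185 and 0.0504), and Fzd7 was then called higher (log2 change -0.03 before and 0.08 after rescaling, adjusted p = 0.039). Each of these 3 was also lost without the first no Dex or the first Dex library of day 2, and with those 2 groups fitted alone 2 members were called. The fall of Fzd3 on day 6 (log2 change -0.41, limma adjusted p = 0.0244) was lost whichever of the 4 libraries was left out (adjusted p = 0.0728 to 0.095). Fzd8 on day 0 (0.16) was lost after rescaling (adjusted p = 0.0758) and without either no Dex library or the second Dex library (adjusted p = 0.0774 to 0.191), and Fzd2 on day 4 (-0.12) after rescaling (adjusted p = 0.0537) and without the first no Dex or the second Dex library (adjusted p = 0.179 and 0.137).

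**Figure D3:**
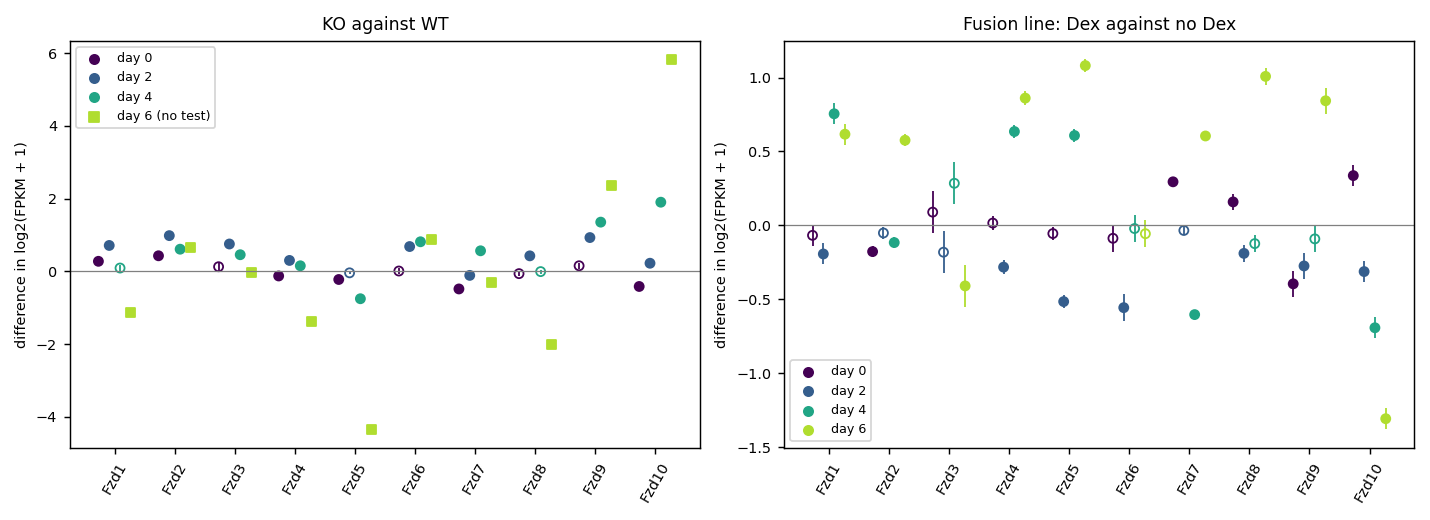
Difference of each Frizzled gene in KO against WT (left) and in the fusion line with against without Dex (right), on the log2(FPKM + 1) scale, by day. Filled circles passed the test, open circles did not, bars are standard errors and squares are day 6 differences given without a test; Fzd10 runs from -0.42 on day 0 to 5.83 on day 6 on the left and from 0.34 to -1.31 on the right.

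Fzd10, which signals through beta-catenin in the dorsal neural tube, ranged from 0.38 to 129.5 FPKM over the 32 libraries. In WT it was read at 7.04 and 7.22 FPKM on day 0, 1.08 and 0.77 on day 2, 0.38 and 0.39 on day 4, and 1.44 and 1.14 on day 6. In KO it was read at 5.12 and 5.07, 1.17 and 1.31, 4.02 and 4.33, and 128.9 and 129.5 FPKM on the same days. WT was therefore the highest of the 4 conditions on day 0 and the lowest on days 4 and 6. Without Dex the fusion line held 3.58 and 3.51, 0.94 and 0.94, 1.60 and 1.83, and 26.04 and 26.2 FPKM. With Dex it held 4.69 and 4.79, 0.49 and 0.64, 0.72 and 0.64, and 9.85 and 10.1 FPKM. On days 4 and 6 the order was KO, no Dex, Dex and WT, and no 2 of these groups overlapped. The mean in KO was 0.715 times that in WT on day 0 (log2 change -0.42 ± 0.07 SE, limma adjusted p = 6.46e-05) and 10.8 times that in WT on day 4 (1.90 ± 0.07, adjusted p = 2.70e-14). On day 6 the ratio of KO to WT was 100.2, the value for which the family was taken up. With Dex, Fzd10 fell by 0.69 ± 0.07 on day 4 (adjusted p = 2.20e-07) and fell by 1.31 ± 0.07 on day 6 (adjusted p = 2.65e-11), whereas on day 0 it was higher by 0.34 ± 0.07 (adjusted p = 0.00062).

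Fzd9, the nearest relative of Fzd10 in coding sequence, stayed low in WT and was higher in the other 3 conditions by day 6. In WT it was read at 2.77 and 2.61 FPKM on day 0, 0.80 and 0.85 on day 2, 1.39 and 1.73 on day 4, and 1.33 and 1.68 on day 6. In KO it was read at 3.27 and 2.94, 2.83 and 2.15, 5.57 and 5.48, and 12.1 and 11.6 FPKM. The KO libraries lay above the WT libraries on every day, and the difference passed the test with 0.93 ± 0.09 on day 2 and 1.35 ± 0.09 on day 4 (limma adjusted p = 2.22e-08 and 7.98e-11). The fusion line held 5.15 and 5.58 FPKM on day 6 without Dex and 10.7 and 10.1 with Dex. On day 6 Fzd9 was higher with Dex by 0.84 ± 0.09 (adjusted p = 2.04e-07), where Fzd10 was lower. Over the 16 group means Fzd9 and Fzd10 correlated at r = 0.80, a description of groups that share lines and days.

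Fzd5, which takes part in eye field and retinal development, ended at 41.9 FPKM or more in WT and at 2.74 FPKM or less in the other 3 conditions. In WT it was read at 30.5 and 31.7 FPKM on day 0, 7.35 and 7.90 on day 2, 35.3 and 36.2 on day 4, and 41.9 and 42.5 on day 6. In KO it was read at 26.4 and 26.5, 7.63 and 7.14, 20.2 and 21.4, and 1.12 and 1.16 FPKM. The knockout was thus below WT on days 0, 4 and 6 and overlapped it on day 2. The difference was -0.22 ± 0.04 on day 0 (limma adjusted p = 0.000235) and -0.75 ± 0.04 on day 4 (adjusted p = 1.37e-11), and the KO mean was 0.0270 times the WT mean on day 6. Without Dex the fusion line went from 27.0 and 26.9 FPKM on day 4 to 0.69 and 0.78 on day 6. With Dex it went from 41.5 and 41.6 FPKM, above the WT libraries, to 2.60 and 2.74. Fzd5 was higher with Dex on day 4 by 0.61 ± 0.04 (adjusted p = 1.70e-09) and on day 6 by 1.08 ± 0.04 (adjusted p = 3.27e-13), and all day 6 libraries with Dex stayed under every WT library.

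Fzd8, the closest relative of Fzd5 and a gene of the anterior neural plate, did not pass the test between KO and WT on day 4 and separated on day 6. On day 4 the libraries held 12.1 and 12.5 FPKM in WT, 12.2 and 12.3 in KO, 14.0 and 13.5 without Dex, and 12.2 and 12.9 with Dex. On day 6 they held 23.8 and 23.6 FPKM in WT, 5.22 and 5.13 in KO, 1.69 and 1.48 without Dex, and 4.22 and 4.17 with Dex. No 2 conditions overlapped on day 6, and the fusion line without Dex was lowest. Fzd8 was higher with Dex on day 6 by 1.01 ± 0.06 (limma adjusted p = 4.08e-11). On day 4 the difference between Dex and no Dex was -0.12 ± 0.06 (adjusted p = 0.0879), and between KO and WT -0.01 ± 0.06 (adjusted p = 0.928).

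Fzd4, the receptor for norrin in retinal vessels, had the lowest median of the family (0.66 FPKM), with 11 of 32 libraries at 1 FPKM or more. On day 6 it was read at 2.96 and 2.95 FPKM in WT, 0.50 and 0.53 in KO, 2.20 and 2.16 without Dex, and 4.73 and 4.82 with Dex. The knockout was lowest and the fusion line with Dex was highest, above WT. On day 4 WT held 0.83 and 0.82 FPKM, KO 1.06 and 1.00, the fusion line without Dex 1.01 and 0.99, and with Dex 2.12 and 2.09. Fzd4 was higher with Dex by 0.63 ± 0.05 on day 4 (limma adjusted p = 3.27e-09) and by 0.86 ± 0.05 on day 6 (adjusted p = 3.38e-11), after a difference of -0.28 ± 0.05 on day 2 (adjusted p = 7.06e-05). Norrin itself (Ndp) was at 2.20 FPKM in WT and 0.61 in KO on day 6. In the fusion line it was at 0.47 FPKM without Dex and 0.705 with Dex, so it stayed below WT where Fzd4 was highest.

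Fzd1, a receptor of the subgroup that also holds Fzd2 and Fzd7, was higher on each later day in every condition. In WT it was read at 0.28 and 0.42 FPKM on day 0, 0.97 and 0.97 on day 2, 4.36 and 4.52 on day 4, and 31.0 and 30.4 on day 6. On day 6 it was read at 13.2 and 13.7 FPKM in KO, 14.0 and 14.7 without Dex, and 22.0 and 23.1 with Dex. The order on day 6 was WT, Dex, no Dex and KO, without overlap between neighbours. On day 2 the order was KO, no Dex, Dex and WT, again without overlap, with 2.39 and 2.07 FPKM in KO, a difference from WT of 0.71 ± 0.07 (limma adjusted p = 5.37e-08). Fzd1 was higher with Dex by 0.75 ± 0.07 on day 4 (7.12 and 8.25 against 3.96 and 4.32 FPKM, adjusted p = 8.11e-08) and by 0.62 ± 0.07 on day 6 (adjusted p = 8.39e-07).

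Fzd2 was the most abundant member on day 4. It was read there at 75.5 and 76.5 FPKM in WT, 113.4 and 119.6 in KO, 107.6 and 103.5 without Dex, and 98.5 and 96.1 with Dex. On day 6 it was read at 52.8 and 51.7 FPKM in WT, 82.1 and 82.8 in KO, 65.9 and 67.2 without Dex, and 99.4 and 99.96 with Dex. WT was lowest on both days and on every earlier day. KO exceeded WT by 0.43 ± 0.04 on day 0, 0.98 ± 0.04 on day 2 and 0.61 ± 0.04 on day 4 (limma adjusted p = 3.52e-08, 1.10e-13 and 7.56e-11). Fzd2 was higher with Dex on day 6 by 0.58 ± 0.04 (adjusted p = 6.25e-10).

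Fzd7, a receptor that maintains stem cells and early embryonic Wnt signalling, peaked on day 2 in WT and in both fusion conditions. On day 2 all 8 libraries lay between 40.6 and 46.8 FPKM. On day 4 Fzd7 was read at 30.8 and 31.4 FPKM in WT, 46.1 and 46.8 in KO, 37.3 and 37.5 without Dex, and 24.8 and 23.7 with Dex. KO lay above its own day 2 libraries (41.4 and 40.6 FPKM), the fusion line with Dex lay below WT, and no 2 conditions overlapped. KO exceeded WT by 0.57 ± 0.03 on day 4 (limma adjusted p = 4.12e-12), after differences of -0.48 ± 0.03 on day 0 and -0.11 ± 0.03 on day 2 (adjusted p = 1.82e-10 and 0.00323). The Dex difference changed sign between days 4 and 6, from -0.60 ± 0.03 to 0.61 ± 0.03 (adjusted p = 1.01e-11 and 6.95e-12), with 23.8 and 23.2 FPKM with Dex and 15.2 and 14.96 without it on day 6.

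Fzd3 and Fzd6 belong to the subgroup best known for planar cell polarity. Fzd3, needed for axon tract formation, was read on day 6 at 18.1 and 18.2 FPKM in WT, 17.7 and 17.6 in KO, 23.0 and 22.5 without Dex, and 17.0 and 16.7 with Dex. The fusion line without Dex was highest, and the other 3 conditions lay between 16.7 and 18.2 FPKM. Its duplicates on day 0 without Dex were the widest of the family in ratio (1.47 and 0.56 FPKM), and its SE of 0.14 was the largest of the 10. Fzd6 was low throughout, ranging from 0.64 to 4.26 FPKM over all libraries. KO exceeded WT in Fzd6 by 0.68 ± 0.09 on day 2 and 0.81 ± 0.09 on day 4 (limma adjusted p = 2.44e-06 and 2.03e-07), and on day 6 KO held 4.01 and 4.26 FPKM beside 1.61 and 2.03 in WT. With Dex, Fzd6 fell by 0.56 ± 0.09 on day 2 (1.40 and 1.45 against 2.74 and 2.40 FPKM, adjusted p = 5.55e-05), and on days 4 and 6 the libraries with and without Dex overlapped.

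Whether a difference changed between days was tested directly. Between days 0 and 4 the KO against WT difference changed in 7 members, up in 6 and down in Fzd5, beside 57.4% of all genes tested (38.1% higher, 19.3% lower; of those called, 66.4% were higher, and 54.9% after rescaling). The change was 2.32 ± 0.10 for Fzd10 (limma adjusted p = 8.21e-13), 1.20 ± 0.12 for Fzd9 (adjusted p = 1.03e-07) and 1.05 ± 0.04 for Fzd7 (adjusted p = 2.94e-13). Between days 0 and 6 the Dex difference changed in 9 members, up in 7 and down in Fzd3 and Fzd10, beside 48.7% of all genes (22.7% higher, 25.9% lower). It was 1.24 ± 0.12 for Fzd9 (adjusted p = 1.05e-07), 1.14 ± 0.06 for Fzd5 (adjusted p = 2.99e-11) and -1.64 ± 0.10 for Fzd10 (adjusted p = 1.49e-10). For Fzd3 it was -0.50 ± 0.20 (adjusted p = 0.045) and was lost in 7 of 8 fits without 1 library, among them the fit without the second no Dex library of day 0, where it was -0.17 (adjusted p = 0.372). For Fzd2 the first of these changes, 0.18 ± 0.06 (adjusted p = 0.00847), was lost after rescaling (adjusted p = 0.447).

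Markers of neighbouring brain regions moved beside these values. On day 6, 6 of 7 diencephalon and midbrain markers (Barhl2, Irx1, Irx2, Irx3, En1, En2, Dmbx1) were higher in KO than in WT and none lower; their sum was 12.9 to 13.3 FPKM in WT, 412 to 417 in KO, 137 to 140 without Dex and 40.7 to 41.1 with Dex. With Dex all 7 were lower than without it. On day 4, 7 of 7 were already higher in KO (161 to 163 beside 8.28 to 9.71 FPKM in WT) and 5 of 7 lower with Dex (25.6 to 26.95 beside 102 to 104 FPKM), while on day 2 the sums were 4.91 to 5.35 FPKM in WT and 11.97 to 12.2 in KO. The 4 neural crest markers (Sox10, Foxd3, Tfap2a, Pax3) summed to 2.59 to 2.70 FPKM in WT, 60.8 to 61.6 in KO, 50.2 to 51.5 without Dex and 18.4 to 18.5 with Dex, and 3 neuronal markers (Tubb3, Dcx, Stmn2) to 39.7 to 41.6, 289 to 293, 232 to 234 and 140 to 142. Both lists were higher in KO than in WT on day 6 in full, 4 of 4 and 3 of 3. The neuronal sum was also high in stem cells, at 331 to 336 FPKM in WT on day 0. It was at least 291.66 FPKM in every day 0 library. On day 4 it was 185 to 189 FPKM in WT and 174 to 175 in KO. A high neuronal sum is therefore no sign of neurons on its own in these libraries. Retinal pigment cell markers (Mitf, Pmel, Trpm1, Tyrp1) reached 86.3 to 87.8 FPKM with Dex on day 6 and no more than 14 in the other 3 conditions. Extraembryonic endoderm markers (Gata6, Sox17, Gata4, Sox7) were lower in KO than in WT in 4 of 4 on each of days 0, 2, 4 and 6, with sums of 2.31 to 2.73 beside 15.5 to 15.99 FPKM on day 0 and 0.21 to 0.36 beside 37.4 to 38.4 on day 6, and higher with Dex in 4 of 4 on days 2, 4 and 6. Endothelial markers (Pecam1, Kdr, Cdh5) were lower in KO on day 6 in 2 of 2 tested, at 0.70 to 0.81 beside 13.1 to 13.4 FPKM. Their sum was higher in stem cells, at 28.5 to 30.3 FPKM in WT and 23.1 to 23.55 in KO on day 0, so it does not mark endothelium on its own. Hindbrain markers (Gbx2, Hoxb1, Hoxa2, Egr2) summed to no more than 1.51 FPKM in any condition on day 6, with Hoxb1 at 0 in both libraries of WT, KO and Dex, and mesendoderm markers (T, Eomes, Mixl1, Gsc) to no more than 1.90. Beside these counts, 30.9% of all genes tested were called higher and 34.2% lower in KO against WT on day 6. For Dex on day 6 these shares were 23.8% and 19%. The shares for the other days are given above with the Frizzled calls. The part of these cell types in the Frizzled values was not tested.

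Fzd10 shares its start region with Fzd10os, a long non-coding RNA gene on the opposite strand (chr5:128579106-128600693), whose annotated start is 151 bases from that of Fzd10 and which does not overlap it. Fzd10os was read at 39.4 and 36.6 FPKM in KO on day 6 and at 0.41 and 0.92 in WT. In the fusion line it was read at 19.6 and 16.9 FPKM without and at 7.29 and 7.94 with Dex. The order of the conditions was that of Fzd10, again without overlap. In the other 24 libraries it was read at no more than 2.33 FPKM, also on day 0, when Fzd10 was read at 3.51 to 7.22 FPKM. Over the 16 group means the pair correlated at r = 0.886, as a description.

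**Figure D4:**
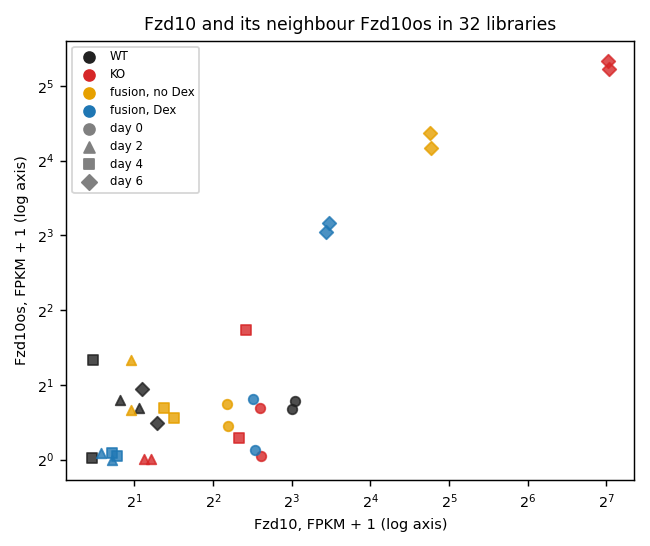
Fzd10 against its divergent neighbour Fzd10os, both as FPKM + 1 on log axes, in the 32 libraries. Colour marks the condition and symbol the day; the 6 day 6 libraries of KO and of the fusion line run up in order to 129.5 and 39.4 FPKM, and the other 26 lie at or below 7.22 and 2.33 FPKM.

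Fzd1, Fzd4 and Fzd5 were the members that rose with Dex on both day 4 and day 6, and their promoters are shown for that reason. Each is the 250 bases before the RefSeq transcript start in GRCm38.p6, 5′ to 3′ on the strand of the gene. A match to CTTTGA, a form of the TCF and LEF core motif, is in capitals. Fzd1 is on the minus strand (chr5:4758217-4758466), Fzd4 on the plus strand (chr7:89404116-89404365) and Fzd5 on the minus strand (chr1:64737751-64738000).
Fzd1: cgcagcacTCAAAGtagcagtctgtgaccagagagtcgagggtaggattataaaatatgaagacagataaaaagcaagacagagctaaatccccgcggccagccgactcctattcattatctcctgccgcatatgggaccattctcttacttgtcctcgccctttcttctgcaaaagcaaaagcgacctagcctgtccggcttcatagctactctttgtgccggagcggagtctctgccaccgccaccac
Fzd4: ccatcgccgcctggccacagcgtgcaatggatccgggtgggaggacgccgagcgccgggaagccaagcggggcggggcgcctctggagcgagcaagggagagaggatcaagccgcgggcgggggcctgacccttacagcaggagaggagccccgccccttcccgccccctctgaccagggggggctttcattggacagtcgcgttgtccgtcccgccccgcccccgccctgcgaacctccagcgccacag
Fzd5: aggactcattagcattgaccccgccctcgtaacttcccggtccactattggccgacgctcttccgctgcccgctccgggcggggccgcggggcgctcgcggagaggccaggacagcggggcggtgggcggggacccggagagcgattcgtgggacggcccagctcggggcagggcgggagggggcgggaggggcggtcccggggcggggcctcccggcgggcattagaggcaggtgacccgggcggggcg

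The RefSeq table matched 6 members (Fzd1, Fzd4, Fzd5, Fzd7, Fzd9, Fzd10). Both strands were searched for AGAACA, the hexamer bound by one subunit of the glucocorticoid receptor, which occurred in 16.2% of 27025 promoters of this length, and for the full element, AGAACA followed after 3 bases of any kind by TGTTCT, which contains the hexamer and occurred in 0.0037%. Neither was found in any of the 6. RefSeq and GENCODE M21 place some starts apart: all 250 bases of the Fzd10 window and 183 of the Fzd9 window lie in a GENCODE exon of the gene, so those 2 windows are largely transcribed sequence in that annotation, beside 11 bases for Fzd4, 1 for Fzd5 and 0 for Fzd1 and Fzd7. CTTTGA, a form of the TCF and LEF core, occurred in 14.0% of promoters and among the 6 in Fzd1 alone, once, as its reverse complement. The form CTTTGT was not searched for; it stands unmarked in the Fzd1 window and as its reverse complement in that of Fzd7. TAATTA, a homeodomain core, occurred in 4.9% and in none of the 6. The motif letters are absent from these windows or present as printed, and nothing about binding was measured. G and C made up 72.8% of the Fzd4 and 76.4% of the Fzd5 promoter, beside 51.2% for Fzd1 and a median of 52.0% over all promoters.

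Genes whose group means followed a member most closely were named by Pearson r over the 16 group means on the log2(FPKM + 1) scale, as a description with no test. Fzd1 was followed by the Wnt ligand gene Wnt5b (r = 0.992), Pkia and Tspan3. Fzd4 was followed by Adamts9 (r = 0.938), by Lhx2 (r = 0.934), an eye field transcription factor, and by C1galt1c1. Fzd5 was followed by Prss35 (r = 0.932), Cavin4 and Sfrp5 (r = 0.911), a secreted Wnt antagonist. Sfrp5 was low, at 1.445 FPKM in WT and 0.095 in KO on day 6, and its Spearman rank correlation with Fzd5 was 0.753. Fzd3 was followed by Scara3 and Antxr2 (both r = 0.992) and Wwtr1, and Fzd2 by Armcx6 (r = 0.989), Slain1 and Ddit4. Fzd10 was followed by Csrnp3 (r = 0.950), Fbxl8 and Ccdc65 (both r = 0.924). Fzd6 was followed by Abhd13 (r = 0.976), Glg1 and Insr, and Fzd7 by Shc4 (r = 0.950), Bend3 and Ccng1. Fzd8 was followed by Arhgap29 (r = 0.953), Hoga1 and Sel1l3, and Fzd9 by Rab8a (r = 0.960), Tmed10 and Atn1. Within the family Fzd1 and Fzd3 were most alike (r = 0.963) and Fzd5 and Fzd10 most opposed (r = -0.628).

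The other genes of the Wnt pathway were followed in 7 lists of 86 genes, 69 of which passed the filter, on day 6 only. The lists were drawn up with earlier results of these data known. Their counts and p-values therefore describe these genes and are not independent support. Several genes stand in more than one list. Beside the counts below, 30.9% of all genes tested were called higher and 34.2% lower in KO, and 23.8% higher and 19% lower with Dex. Of 14 ligand genes tested (Wnt genes and Ndp), 7 were higher and 6 lower in KO than in WT, and with Dex 4 were higher and 8 lower than without it. Wnt1, the ligand of the midbrain and dorsal midline, was at 58.7 FPKM in KO and 1.48 in WT (log2 change 4.59 ± 0.05, limma adjusted p = 5.92e-23) and at 15.1 with and 39.3 without Dex (-1.32 ± 0.05, adjusted p = 1.17e-13). Wnt3 (2.96), Wnt9a (2.39) and Wnt4 (1.81) also rose in KO, and with Dex Wnt3 (-1.22) and Wnt4 (-0.81) fell and Wnt5b rose (0.81). The median change of the ligands was 0.63 in KO and -0.38 with Dex, beside -0.03 and 0.01 over all genes.

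Of the 7 receptor turnover genes tested, 6 were higher in KO and 1 lower (Lgr4), with a median change of 0.92, and with Dex 3 were lower and none higher, with a median of -0.18. The R-spondin genes Rspo1 (log2 change 3.25 ± 0.11, limma adjusted p = 2.53e-15), Rspo2 (2.58 ± 0.04, adjusted p = 2.27e-20) and Rspo3 (1.06 ± 0.05, adjusted p = 4.66e-13) and their receptor gene Lgr5 (0.92) rose most in KO. With Dex Rspo3 fell by 1.23, from 83.7 to 35.0 FPKM, and Rspo2 by 0.98, from 48.2 to 23.9 FPKM. Rspo1 was at 56.7 FPKM with and 56.4 without Dex. Rspo3 was at 9.38 FPKM in KO and 3.98 in WT, and Rspo2 at 18.3 and 2.225. With Dex both genes therefore stayed above their KO levels. Of 10 other receptors and co-receptors tested, 4 were higher in KO and 1 lower, and 3 were higher and 2 lower with Dex. Among them the Wnt5a receptor gene Ror2 rose by 1.21, the planar polarity receptor gene Ptk7 by 0.65 and the Hedgehog transducer gene Smo by 0.27 in KO, and Reck, a partner of Adgra2, fell by 0.51. With Dex Lrp5 rose by 0.57, Adgra2 by 0.47 and Ptk7 by 0.38, and Ror1 fell by 0.37. Lrp6, the co-receptor used with most Frizzled proteins, was at 14.6 FPKM in KO and 15.4 in WT.

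Of 13 beta-catenin target genes tested, 10 were higher in KO and 1 lower (Ccnd1), with a median change of 0.69, and with Dex 1 was higher (Nkd2) and 5 lower, with a median of -0.14. Axin2, a scaffold of the destruction complex, rose by 3.05 ± 0.08 in KO (56.8 against 5.99 FPKM, limma adjusted p = 9.44e-17) and fell by 0.51 ± 0.08 with Dex (30.5 against 43.7 FPKM, adjusted p = 4.78e-05). Sp5 (2.42), Apcdd1 (2.37) and the feedback inhibitor Nkd1 (1.39) also rose in KO. With Dex Apcdd1 (-0.98), Lgr5 (-0.61) and Sp5 (-0.36) fell. Apcdd1, Notum, Znrf3, Rnf43, Lgr5 and Lef1 are counted in other lists as well.

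Of 12 antagonists tested, 6 were higher and 6 lower in KO, and with Dex 5 were higher and 5 lower. The list is labelled secreted antagonists, although Apcdd1 and Kremen1 in it are membrane proteins. Apcdd1 (2.37) and Frzb (1.18) rose and Dkk3 (-1.52) and Sfrp5 (-1.16) fell in KO, while with Dex Apcdd1 (-0.98) and Frzb (-0.83) fell and Dkk1 (0.78) and Dkk3 (0.77) rose. The median changes were -0.09 and 0.06. Of 13 intracellular transducers, 4 were higher and 5 lower in KO, and 5 were higher and 4 lower with Dex, with medians of -0.02 and -0.04. Tcf7l1, a repressor of target genes in the anterior neural plate, fell by 1.27 in KO and rose by 1.18 with Dex. Tcf7l2 fell by 0.85, Csnk1a1 fell by 0.64 (log2 change -0.64) and Axin1 rose by 0.69 in KO, and with Dex Gsk3a rose by 0.74, Dvl1 rose by 0.65 and Apc fell by 0.48. Of 6 planar polarity partners tested, 4 were higher and 1 lower in KO (median 0.59), with Celsr1 up by 0.99, Vangl2 by 0.78 and Celsr3 by 0.70 and Prickle1 at -0.90. With Dex 2 were higher and 1 lower (median -0.03), with Celsr1 at -0.56, Vangl1 at 0.33 and Prickle1 at 0.17. The backgrounds for these counts in either direction are 65.1% of all genes tested called in KO against WT and 42.7% with against without Dex. In KO the 5 of 10 other receptors called were under that share and the 9 of 13 transducers near it. With Dex the 3 of 7 turnover genes, 5 of 10 other receptors, 3 of 6 planar polarity partners and 6 of 13 targets were near theirs.

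**Figure D5:**
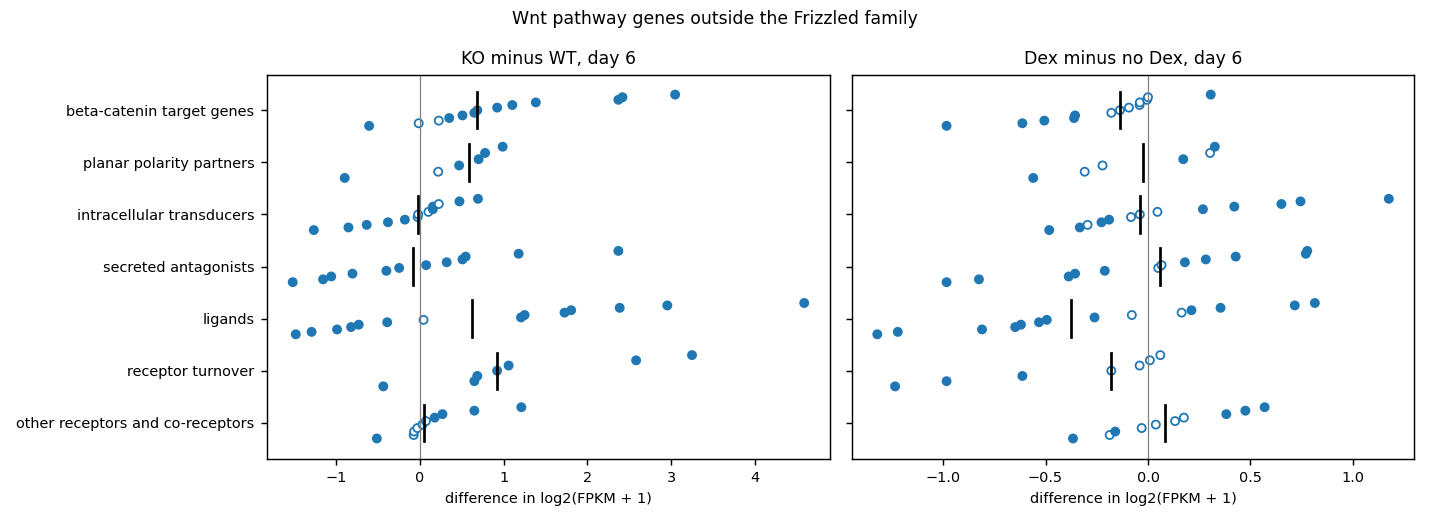
Day 6 differences of the 69 Wnt pathway genes tested, by list, on the log2(FPKM + 1) scale, for KO against WT (left) and Dex against no Dex (right). Each circle is a gene, filled where it passed the test, and the vertical bars are list medians; the median of the beta-catenin targets is 0.69 on the left and -0.14 on the right.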

How the data were processed

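Polyadenylated RNA of 32 mouse libraries, 2 in each of 16 groups, was sequenced as paired reads. The deposited values are FPKM per gene made by the authors. Per the submitters' processing notes STAR, Cuffdiff and the mm10 build were used, and versions and settings are not given in the sources used here. The table held 55492 rows, of which 5 carried no Ensembl identifier and 21161 were at 0 in every library.

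Values were analysed as log2(FPKM + 1) with limma 3.58.1 in R 4.3.3, in 1 fit of 16 group means with a mean-variance trend and 16 residual degrees of freedom. The fit covered 16276 genes that reached 1 FPKM in 2 or more of the 32 libraries. Tests were two-sided, with Benjamini-Hochberg adjustment over all genes tested, and genes under an adjusted p of 0.05 were called. The log2(FPKM + 1) scale understates changes of low genes. Error terms after ± are standard errors of a difference. The depth of a library was estimated from the steps between its low FPKM values, of which 89.2% to 92.9% lay within 0.2 of a whole fragment, where chance gives 40%. The scripts were tested on simulated data.

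The members and gene lists were chosen with earlier results of these data known. All 10 members are named. The 4 genes with the largest called change are named from each pathway list, with Lgr4, Rspo1, Ccnd1, Nkd2, Lrp6 and Ndp added after their values were seen, and the 3 genes with the highest r for each member. Contrasts that use WT or KO libraries of day 6 were not tested for the members. Alternatives were another pseudocount, no filter or a filter on the mean, rescaling by median of ratios, a replicate block, a minimum fold, a fit without the WT and KO day 6 libraries, the compared groups alone, and each library left out. Gene positions are from GENCODE M21, and promoter sequences from RefSeq (GRCm38.p6), where 6 of 10 members matched. A few cell type markers, and sums over lists that hold them, are not reported here.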

Additional observations from a re-analysis of the deposited data

Results flagged for a closer look

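The results below drew a closer look because a difference between 2 conditions itself changed between 2 days, by a tested interaction in limma. They are given as values on the log2(FPKM + 1) scale, and groups of 2 libraries allow no check for a library that stands apart. From day 0 to day 4 the difference of KO from WT changed by 2.32 in Fzd10, 1.20 in Fzd9, 1.05 in Fzd7, 0.80 in Fzd6, 0.28 in Fzd4, 0.18 in Fzd2 and -0.53 in Fzd5. For Fzd4, Fzd7 and Fzd10 the difference changed sign, from lower in KO on day 0 to higher on day 4, and both ends passed the test, although in Fzd4 both ends are small (-0.13 and 0.15) and were lost with 1 library left out.

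From day 0 to day 6 the difference of Dex from no Dex changed by 1.24 in Fzd9, 1.14 in Fzd5, 0.85 in Fzd8, 0.84 in Fzd4, 0.75 in Fzd2, 0.68 in Fzd1, 0.31 in Fzd7, -0.50 in Fzd3 and -1.64 in Fzd10. In Fzd2 and Fzd9 it went from lower with Dex to higher, and in Fzd10 from higher to lower, and both ends passed the test in these 3 members. Between those days the diencephalon and midbrain and the retinal pigment markers also moved with Dex, as given above, and their part was not tested.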

How the results depend on the processing

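No called change of a Frizzled gene reversed under any alternative run. The share of all genes called was not computed under the alternatives. Counts of called members and list genes under them therefore describe each setting, and show nothing particular to these genes. Of 136 such changes, 129 kept their call with a pseudocount of 0.1, 133 without the filter on low values, 125 after rescaling, 135 without the WT and KO libraries of day 6, and all 99 that could be tested with a filter on a mean of at least 5 FPKM. With the compared groups alone 116 of 128 kept it, and with 1 library left out 561 of 608. Rescaling bears on small changes, since it moved the median of all genes by over 0.1 between days 0 and 4 in KO and without Dex. It also added 6 calls: Fzd5 in KO against WT on day 2 and for Dex on day 0, Fzd7 for Dex on day 2 and with Dex between days 4 and 6, Fzd8 in no Dex against KO on day 4, and Fzd1 in the KO interaction.

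With a mean of at least 5 FPKM fewer genes were tested. Called members then went from 8 to 5 in KO against WT on day 4, from 7 to 4 for Dex on day 2 and from 7 to 4 for the KO interaction. In KO against WT on day 6 called list genes went from 5 to 3 for other receptors, 7 to 4 for receptor turnover, 13 to 4 for ligands, 12 to 4 for antagonists, 5 to 3 for planar polarity and 11 to 7 for beta-catenin targets. For Dex on day 6 they went from 5 to 3 for other receptors, 12 to 4 for ligands, 10 to 4 for antagonists and 6 to 3 for targets.

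With a log2 change of at least 1 also required, 47 of 136 remained. Called members went from 6, 9 and 8 in KO against WT to 0, 0 and 2 on days 0, 2 and 4, from 5 to 0 in no Dex against KO on each of these days, and from 5, 7, 6 and 9 for Dex to 0, 0, 0 and 3 on days 0, 2, 4 and 6. They went from 9 to 5 in WT, 10 to 5 in KO and 10 to 6 without Dex between days 0 and 4, and from 7 to 3 and 9 to 3 for the KO and Dex interactions. In KO against WT on day 6 list genes went from 5 to 1 for other receptors, 7 to 3 for turnover, 12 to 5 for antagonists, 9 to 1 for transducers, 5 to 0 for planar polarity and 11 to 5 for targets. For Dex on day 6 they went from 5 to 0, 3 to 1, 10 to 0, 9 to 1, 3 to 0 and 6 to 0 in the same order, and from 12 to 2 for ligands.

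With the compared groups fitted alone, with fewer residual degrees of freedom, called members went from 5 to 3 in no Dex against KO on day 2, from 5 to 3 for Dex on day 0 and from 7 to 2 for Dex on day 2. Leaving out 1 library gave 3 to 5 called members in no Dex against KO on day 2 and 4 to 6 for Dex on day 2; the lone library is then assumed to vary like the other groups. In the other Frizzled comparisons the count stayed within 1.5 times that of all libraries.

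Libraries of equal replicate number did not deviate together: the correlations ran from -0.09 to 0.13 in 120 comparisons of groups, and the libraries share a number only. With a replicate block all 136 calls were kept, and called list genes went from 12 to 11 for antagonists in KO against WT on day 6 and, for Dex on day 6, from 3 to 4 for planar polarity and from 6 to 5 for targets.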
